A study of Mus musculus with 12 samples.

Results

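The mouse endometrial cancer cell line mECC was compared with primary cultured normal endometrial cells over every gene that passed a filter on low counts. The comparison used 8 of the 12 RNA sequencing libraries of the study, 4 labelled mECC and 4 labelled as normal endometrial cells (called normal below), all from the C57BL/6 strain. The filter kept 15283 of the 55385 genes in the count table, and 13765 of those kept are protein coding. The labels give no age, passage number or allele for either group. According to the design text, some cancer lines of the study overexpress Myc, without naming which. The sample titles carry the codes DM for mECC and B6 for normal, which they do not explain. Whether the 4 libraries of each group derive from distinct cultures or mice is not in the labels. The spread behind each p-value is therefore only that among these libraries and may be technical. The other 4 libraries, of the cancer line HPmECC, entered the filter on low counts and the shared estimate of the spread, and are not compared here.

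The endometrium is the lining of the uterus. Its luminal and glandular epithelium rests on a laminin-rich basement membrane over a stroma of fibroblasts, vessels and leukocytes, and estrogen and progesterone set its growth and its secretions. Endometrial carcinomas arise from the epithelium, and their cells can lose epithelial features and take on those of mesenchymal cells, a shift driven in many tissues by the Snail, Zeb and Twist repressors. The p53 protein halts the cell cycle after damage, and the products of Cdkn2a act upstream of p53 and of the retinoblastoma protein.

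Library totals ran from 16332060 to 24202564 counts in normal and from 21755275 to 25821106 in mECC. Mitochondrially encoded genes took 0.821% to 1.28% of the counts in normal and 1.18% to 1.44% in mECC. In each group, libraries 1 and 2 held less than libraries 3 and 4. The first principal component of the 8 libraries held 95.4% of the variance and separated the groups. In what follows, each value in brackets as log2 is the log2 fold change of mECC over normal, with an approximate standard error (SE). This SE is the absolute log2 fold change over the square root of the F statistic of the edgeR test. It can be too small for genes with few counts in a group, such as Krt13 and Hoxa11 below. Levels are deposited TPM (a level per transcript length with the same total in each library), and fold changes come from the counts after TMM scaling, which sets the libraries level over the bulk of genes. The median log2 fold change of all genes tested was -0.02. Scaling by library totals in place of TMM raises the log2 fold change by a median of 0.24 over the genes tested. Scaling by TPM raises it by a median of 0.25 over the 9379 genes at 5 TPM or more in both groups. Small changes therefore depend on the scaling.

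The markers of the labelled tissue were present in normal. Summed over 16 epithelial markers, normal libraries held 9351 to 9778 TPM and mECC libraries 1759 to 1815 TPM. The normal culture also held transcripts used as markers of other cell types. Its 14 smooth muscle and pericyte markers summed to 2759 to 3316 TPM, its 16 leukocyte markers to 366 to 453 TPM and its 13 endothelial markers to 55.4 to 60.7 TPM. In mECC the same sums were 134 to 139, 71.3 to 79.1 and 9.28 to 11.6 TPM. Some sums were higher in mECC. The 18 fibroblast markers summed to 8514 to 9313 TPM in mECC and to 2241 to 2715 TPM in normal. The adipocyte and nerve sums were 13.9 to 17.2 and 43.4 to 45.1 TPM in mECC, and 4.1 to 5.33 and 30.1 to 31.8 TPM in normal. In normal library 2 the fibroblast and muscle sums were the lowest of the 4, and the leukocyte sum was the highest. The leukocyte genes Tyrobp and Laptm5 stood at 0 against 17 TPM and 0.08 against 55.6 TPM in mECC and normal, and the endothelial cadherin gene Cdh5 at 0.0175 against 15.1 TPM. Genes of blood cells of the red lineage reached at most 1.38 TPM in any of the 8 libraries. Most of the muscle sum in normal came from Tagln and Acta2, both given below. In these bulk samples fewer cells of a type and less RNA per cell cannot be told apart. Whether the normal culture was mixed, and how much of each difference below would come from that, was not tested.

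Sequences are shown for promoters of epithelial markers, because these genes fell together in mECC and because the repressors Snai2, Zeb1 and Zeb2, which rose, are known to bind the E-box letters CAGGTG. Each line gives the 250 bases before the gene's start from RefSeq on GRCm38.p6, read 5′ to 3′ on the gene's strand, with each E-box (CAGGTG, or CACCTG where it lies on the other strand) in capitals. The genes encode a clathrin adaptor subunit of polarised cells (Ap1m2), a serine protease inhibitor (Spint2), an epithelial adhesion molecule (Epcam) and a vesicle traffic GTPase (Rab25). These 4 are among the 6 epithelial markers with more than 1 E-box.
Ap1m2 (chr9:21312334-21312583, minus strand): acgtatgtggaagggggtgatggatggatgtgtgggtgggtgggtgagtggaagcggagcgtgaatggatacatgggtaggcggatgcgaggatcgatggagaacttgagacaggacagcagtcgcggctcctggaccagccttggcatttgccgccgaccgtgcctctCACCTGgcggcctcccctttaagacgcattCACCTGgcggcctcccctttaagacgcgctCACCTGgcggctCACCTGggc
Spint2 (chr7:29281978-29282227, minus strand): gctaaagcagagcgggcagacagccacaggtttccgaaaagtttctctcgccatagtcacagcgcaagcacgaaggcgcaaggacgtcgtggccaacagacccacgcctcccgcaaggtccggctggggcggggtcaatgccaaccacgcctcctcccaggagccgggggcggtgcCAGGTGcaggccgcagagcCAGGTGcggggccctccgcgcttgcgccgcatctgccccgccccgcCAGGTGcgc
Epcam (chr17:87635729-87635978, plus strand): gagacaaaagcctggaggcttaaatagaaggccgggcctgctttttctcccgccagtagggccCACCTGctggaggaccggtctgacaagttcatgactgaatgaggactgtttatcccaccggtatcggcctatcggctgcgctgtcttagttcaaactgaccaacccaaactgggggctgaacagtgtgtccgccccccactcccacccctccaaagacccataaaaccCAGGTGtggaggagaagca
Rab25 (chr3:88548280-88548529, minus strand): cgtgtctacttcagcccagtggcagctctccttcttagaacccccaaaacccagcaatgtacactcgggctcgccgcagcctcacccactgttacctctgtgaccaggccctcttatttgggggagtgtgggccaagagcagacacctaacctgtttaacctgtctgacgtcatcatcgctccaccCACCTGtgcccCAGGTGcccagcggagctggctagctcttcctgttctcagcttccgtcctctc
These windows hold 4, 3, 2 and 2 E-boxes. Of the 16 epithelial markers, 12 had a promoter entry, and 11 of those 12 held at least 1 E-box, the exception being Cldn3. Of the 18 fibroblast markers, 10 had an entry and 0 held one. Among the 11157 genes tested that had an entry, 18.9% held at least 1, and 17.2% of all 32851 promoter windows did. The motif was chosen after the changes were known, a match is a description of the letters, and binding was not measured. Whether genes with the motif fell more often than others was not tested, nor was any role of these repressors in the falls.

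Between mECC and normal, 6436 genes were higher and 6748 lower in mECC, which is 42.1% and 44.2% of the genes tested (edgeR, adjusted p under 0.05). With library totals in place of TMM the split was 7866 higher and 5453 lower, and with limma on log2(TPM + 1) it was 7567 and 5275. A change of at least 2-fold was found in 2805 genes upward (18.4%) and 3485 downward (22.8%). Beyond 5 on the log2 scale, 792 genes were lower and 291 higher. TPM of the groups did not overlap in 46.5% of genes upward and 32.6% downward, so a gene without overlap is not unusual here. The counts of each gene list below are to be read against 42.1% higher and 44.2% lower over all genes tested.

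The transcript with the steepest fall was Prap1, which encodes a secreted proline-rich protein of uterine epithelium (ENSMUSG00000025467, chromosome 7 at 140093395 to 140097200 of GRCm38). Prap1 stood at 10541, 10366, 9224 and 10492 TPM in the 4 normal libraries and at 0, 0, 0 and 0.17 TPM in mECC. Only 1 count fell on it in the 4 mECC libraries together, and the ratio of normal to mECC was 308320-fold, with an exact 95% counting interval from 55337 to 12178000. The antimicrobial lectin gene Sftpd was at 687, 722, 608 and 671 TPM in normal and at 0 counts in mECC, and was at least 17266-fold lower against a floor of 3 counts over the 4 libraries. Lactoferrin (Ltf), which binds iron in uterine fluid, went from 1123, 1162, 1001 and 1156 TPM to 1 count. In each of these genes every normal library was far above every mECC library.

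Other steep losses among abundant transcripts were in Alox15, a lipoxygenase (0 against 127 TPM), in the transporter gene Slc1a1 (0.0075 against 75.1 TPM), in Guca2b, which encodes uroguanylin (0.0825 against 963 TPM), and in C2cd4a (0 against 55.3 TPM). In the other direction 5 genes were at 0 counts in normal and at 10 TPM or more in mECC, against 30 the other way. They included the chemokine gene Cxcl15, the angiotensin precursor gene Agt, the transcription factor gene Sox2 and the aldehyde dehydrogenase gene Aldh3a1. Cxcl15 stood at 127, 136, 118 and 142 TPM in the 4 mECC libraries, at least 3658-fold higher than the floor. Further genes of the 12 steepest rises were Capn6, a calpain-like microtubule protein gene (105 against 0.295 TPM), Angpt4, an angiopoietin (125 against 0.573 TPM), Enpp2, which encodes autotaxin (98.1 against 0.507 TPM), Rassf2 (57.3 against 0.235 TPM) and Ccn5 (279 against 1.8 TPM).

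**Figure D1:**
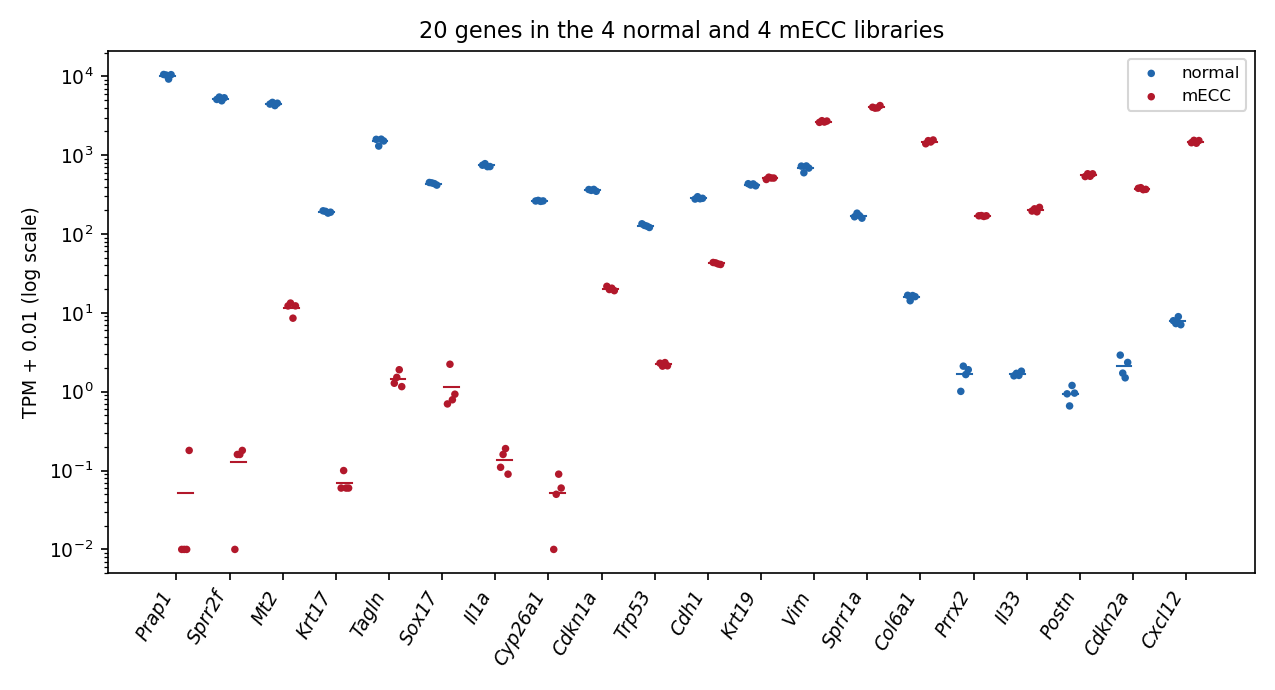
TPM plus 0.01 on a log axis for 20 genes, with 1 point for each of the 4 normal (blue) and 4 mECC (red) libraries and a line at the group mean. The libraries of a group lie close together in most genes, but the mECC libraries are spread in genes very low there, such as Prap1, Sprr2f and Cyp26a1. Krt19 is the only gene of the 20 that was not called.

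Epithelial genes fell as a group, without reaching 0. Of the 16 epithelial markers, 15 were lower and 0 higher, and their median log2 fold change was -3.49. The E-cadherin gene Cdh1, which encodes the adhesion protein of epithelial sheets, stood at 278, 297, 279.7 and 284 TPM in normal and at 43.5, 43, 41.7 and 41 TPM in mECC (8-fold, log2 -3.00 with SE 0.036, adjusted p = 2.76e-22 by edgeR). Epcam stood at 429.8, 458, 410.4 and 419 TPM in normal and at 108, 100.3, 107 and 104 TPM in mECC (4.99-fold, log2 -2.32 with SE 0.041, adjusted p = 6.3e-20 by edgeR). Every normal library was above every mECC library in both genes, and neither came near 0 in mECC.

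Tight junction genes, which seal the space between epithelial cells, fell in 19 of 20 cases, with a median of -3.13 and 0 higher. The occludin gene Ocln stood at 63.4, 70, 64.8 and 66.8 TPM in normal and at 2.91, 2.95, 2.37 and 3.31 TPM in mECC (29.4-fold, log2 -4.88 with SE 0.061, adjusted p = 4.35e-22 by edgeR). Claudin genes did not fall alike. Cldn7 (32.3 against 514 TPM, mECC before normal in this and all later pairs) and Cldn10 (0.09 against 16.1 TPM) fell, whereas Cldn6, a claudin of embryonic epithelia, stood at 112 against 102 TPM and was not called. Cldn6 was called higher with library totals in place of TMM and lower with DESeq2. Of 12 desmosome genes 11 fell, among them the desmoplakin gene Dsp (3.83 against 54.3 TPM) and the desmoglein genes Dsg2 (1.9 against 27.8 TPM) and Dsg3 (0.06 against 5.68 TPM). Pkp1, a plakophilin of stratified epithelia, rose (15.7 against 8.85 TPM).

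Keratin genes, whose proteins form the filaments of epithelial cells, showed 10 lower, 5 higher and 1 not called among 16 tested. Krt17, a keratin of basal and wounded epithelium, had the steepest fall, from 197, 194, 184 and 189 TPM to 0.05, 0.09, 0.05 and 0.05 TPM (3313-fold, log2 -11.69 with SE 0.10, adjusted p = 5.02e-24 by edgeR). The main pair of simple epithelium, Krt8 and Krt18, fell 12.3-fold and 17-fold but remained at 200.4 ± 7.19 and 154 ± 6.55 TPM in mECC (SD, n = 4). Krt19 stood at 434, 418, 432 and 409 TPM in normal and at 491, 525, 513 and 512 TPM in mECC (log2 0.01 with SE 0.05, adjusted p = 0.827 by edgeR), and was called higher under library totals. Krt13, a keratin of internal stratified epithelia, rose from 0, 0.26, 0 and 0.04 TPM to 60.2, 62.8, 60.8 and 65.6 TPM (373-fold, log2 8.54 with SE 0.20, adjusted p = 5.79e-18 by edgeR). Normal library 2 held most of the normal signal of Krt13, and without it the log2 fold change was 10.41. By mean TPM, Krt19 was the most abundant of the keratin genes tested in mECC, and Krt18 and Krt8 were in normal.

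Genes of the cornified envelope, the protein shell of squamous cells, mostly fell. This group was put together after the values were seen. Of 18 tested, 14 were lower and 3 higher, with a median of -5.28. Sprr2f, which estrogen induces in the uterus, went from 5088, 5455, 4889.8 and 5341 TPM in normal to 0, 0.15, 0.15 and 0.17 TPM in mECC. Its relative Sprr1a moved the other way, from 165, 184, 171 and 159 TPM to 4051, 3946, 3979.8 and 4254 TPM (20.1-fold, log2 4.33 with SE 0.074, adjusted p = 3.62e-20 by edgeR). Sprr2k (31.1 against 0.887 TPM) and Sprr1b (1.31 against 0 TPM) rose as well, and Crct1 (0 against 682 TPM) and the loricrin gene Lor (3.08 against 61.4 TPM) fell. Sprr genes are close copies, and how reads were divided among them is uncertain. Of the other markers of stratified squamous epithelium, Trp63 stood at 6 against 0.0525 TPM, Krt5 at 0.0825 against 0.04 TPM, Krt14 at 17.1 against 9.76 TPM and the involucrin gene Ivl at 0.152 against 5.5 TPM, so Sprr1a made up almost all of the summed squamous level of 4059 to 4371 TPM in mECC.

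Most transcription and splicing factors that maintain epithelium fell and most of those of mesenchyme rose. Of 14 epithelial regulators 12 were lower, and of 15 mesenchymal regulators 13 were higher, with medians of -2.73 and 2.38. Among the epithelial ones, Elf3 fell to 29.3 ± 1.93 from 359 ± 17.7 TPM (SD, n = 4), Grhl2 stood at 3 against 23.9 TPM, Ovol1 at 0.14 against 16.4 TPM and the splicing regulator Esrp1 at 9.44 against 42.8 TPM. The exceptions were Trp63 and Cdx2 (0.407 against 0 TPM), which rose from a low or absent level.

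Prrx2, a homeobox gene of connective tissue, stood at 1, 2.1, 1.64 and 1.89 TPM in normal and at 170.2, 171, 167 and 170.3 TPM in mECC (74.4-fold, log2 6.22 with SE 0.08, adjusted p = 7.31e-22 by edgeR). The E-box repressor Snai2 rose from 3.51, 3.65, 3.64 and 3.5 TPM to 95.7, 95, 95.1 and 98.2 TPM (22.6-fold, log2 4.50 with SE 0.075, adjusted p = 2.45e-20 by edgeR). Zeb1 (27.1 against 5.37 TPM), Zeb2 (32.8 against 5.3 TPM), Twist1 (41.8 against 7.45 TPM), Twist2 (26.6 against 3.85 TPM), Prrx1 (91.4 against 7.86 TPM) and Foxc1 (36 against 0.91 TPM) rose too. Snai1 rose the least of this set (19.3 against 12 TPM). Tcf21, a factor of stromal fibroblasts, was at 0 counts in mECC and 3.89 ± 0.406 TPM in normal, and Snai3 fell (0.93 against 1.49 TPM) and was not called by limma on log2(TPM + 0.1).

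Fibroblast markers did not move together. Of 18, 11 were higher and 7 lower. The intermediate filament gene Vim stood at 726, 598, 729 and 685 TPM in normal and at 2604, 2736, 2629 and 2707 TPM in mECC (3.27-fold, log2 1.71 with SE 0.046, adjusted p = 4.09e-17 by edgeR). Thy1, a surface marker of fibroblasts, was at 16.8 ± 2.9 TPM in normal and 0 counts in mECC, and Dcn, Hand2 and Mmp2 fell, while Pdgfrb (77.4 against 4.64 TPM) and S100a4 (978 against 491 TPM) rose. Smooth muscle genes fell in 11 of 13 cases with a median of -4.41. The transgelin gene Tagln went from 1587, 1304, 1595 and 1512 TPM to 1.27, 1.51, 1.89 and 1.15 TPM (1109.7-fold, log2 -10.12 with SE 0.10, adjusted p = 2.36e-23 by edgeR), and the smooth muscle actin gene Acta2 from 992 ± 86.2 to 56.8 ± 1.52 TPM (SD, n = 4). Of 27 genes of the SRF and Hippo pathways and their targets 20 were lower and 4 higher, and 20 and 7 under library totals. Of these Ccn2, a matricellular growth factor gene (168 against 1129 TPM), and the early response gene Fos (4.93 against 83.8 TPM) fell.

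**Figure D2:**
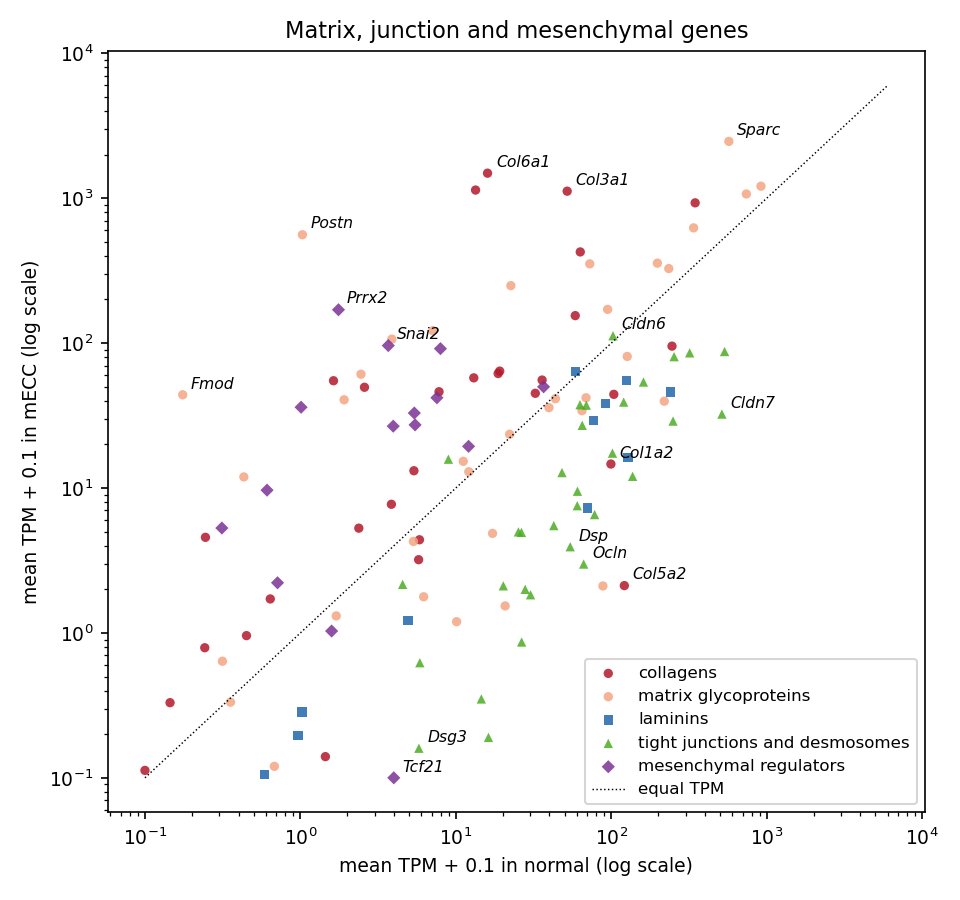
Mean TPM plus 0.1 in mECC against normal, both on log axes, for collagens, matrix glycoproteins, laminins, junction genes and mesenchymal regulators, with 1 point per tested gene and a dotted line at equal TPM. Most collagens and mesenchymal regulators lie above the line, with Col5a2, Col1a2 and Tcf21 among the exceptions, and junction genes and laminins lie mostly below it.

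Most collagen genes rose and laminin genes fell. Of 11 fibrillar collagen genes 9 rose and 2 fell, of 19 other collagen genes 12 rose and 5 fell, and all 11 laminin genes tested fell under TMM scaling. Lamb2, which stood at 63.8 against 58.5 TPM, turned to higher under library totals and under TPM, without a call. Laminins had a median of -3.05. The laminin chain genes Lama3 (7.16 against 70.3 TPM) and Lamb3 (16.1 against 128 TPM) fell 12-fold and 9.45-fold. The basement membrane collagen pair Col4a1 (95.2 against 245 TPM) and Col4a2 (44.2 against 104 TPM) fell as well.

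The periostin gene Postn, whose protein is a matricellular component of remodelling stroma, rose from 0.93, 0.65, 1.19 and 0.95 TPM to 535, 581, 539.5 and 579.9 TPM (581-fold, log2 9.18 with SE 0.069, adjusted p = 1.1e-24 by edgeR). Col6a1 stood at 16.7, 14.2, 16.6 and 16.1 TPM in normal and at 1394, 1528, 1468 and 1557 TPM in mECC (79-fold, log2 6.30 with SE 0.055, adjusted p = 5.15e-24 by edgeR). Col6a2, which pairs with it, rose 72-fold, whereas Col6a3, the third chain of the collagen VI trimer, changed by 1.22-fold (55.5 against 35.8 TPM). Chains of single trimers moved apart elsewhere too. Col1a1 rose (928 against 346 TPM) and Col1a2, its partner in collagen I, fell from 104, 83.9, 105 and 104 TPM to 14.4, 15.7, 14.1 and 14 TPM (9.12-fold, log2 -3.19 with SE 0.072, adjusted p = 2.43e-18 by edgeR). Col5a1 rose (425 against 63 TPM) and Col5a2 fell from 129, 105, 133 and 118 TPM to 1.7, 2.26, 1.98 and 2.14 TPM (70.7-fold, log2 -6.14 with SE 0.086, adjusted p = 2.18e-21 by edgeR). Normal library 2 had the lowest value of the normal group in each of these chain genes of collagens I, V and VI.

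Matrix glycoprotein genes rose in 17 and fell in 14 of 35 cases. The fibromodulin gene Fmod (43.9 against 0.075 TPM) and Sparc (2464 against 570.2 TPM) rose, and the lysyl oxidase family divided, with Loxl1 (249 against 22.5 TPM) and Loxl3 (40.5 against 1.81 TPM) higher and Loxl2 (2.01 against 88.2 TPM) lower. Integrin genes, the receptors of this matrix, fell in 13 of 18 cases. Itga2, a collagen receptor of epithelium, went from 67.8, 66.6, 65 and 71.5 TPM to 1.72, 2.72, 2.5 and 1.96 TPM, and Itga11, a collagen receptor of fibroblasts, from 0.17, 0.17, 0.07 and 0.07 TPM to 33.3, 38.2, 35.7 and 39 TPM (271-fold, log2 8.08 with SE 0.12, adjusted p = 4.37e-21 by edgeR). Itga6 (10.2 against 75.2 TPM) and Itgb4 (7.75 against 75.8 TPM), which form the laminin receptor of hemidesmosomes, fell. Among 32 proteases and inhibitors 19 fell and 11 rose. Mmp7, the matrilysin gene of uterine epithelium (0.11 against 109 TPM), and the plasminogen activator gene Plau (36.7 against 408 TPM) fell, and Timp2 rose (567 against 73.7 TPM).

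Transcription factors that pattern the reproductive tract and other organs changed in both directions. Of 26 lineage factors 17 rose and 8 fell. Sox17, which specifies endometrial glands, stood at 450.1, 445, 436 and 417 TPM in normal and at 0.69, 2.22, 0.78 and 0.92 TPM in mECC (463-fold, log2 -8.85 with SE 0.08, adjusted p = 4.18e-21 by edgeR). Pax8, a factor of Müllerian epithelium, fell (28.2 against 255 TPM) without being lost, and Wt1 went from 21.6 ± 2.52 TPM to 0 counts. Sox2, a factor of stem cells and of foregut and neural epithelium, rose from 0 counts to 12.2, 12.8, 11.4 and 12.6 TPM, at least 330.4-fold above the floor. Its gene lies within that of the longer RNA Sox2ot on the same strand, so the reads of the pair are uncertain. Sox2ot itself was at 0.0725 against 0.627 TPM. Nr2f1 (12.2 against 0.055 TPM), Osr1 (14.5 against 0.477 TPM), Gata3 (10.4 against 1.28 TPM) and Foxa2, a factor of endometrial glands (13.3 against 1.16 TPM), also rose. Emx2 rose less (71.4 against 27.9 TPM).

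HOX genes, whose order along each cluster follows their order of use from head to tail, changed by cluster. Of 39 HOX genes 30 were tested, and 12 rose, 16 fell and 2 were not called. With library totals 14 rose and 14 fell. The tested HoxC genes (Hoxc4, Hoxc5, Hoxc6, Hoxc8, Hoxc9, Hoxc10 and Hoxc13) were at 0 counts in all 4 mECC libraries. Hoxc6 stood at 5.53, 5.93, 7.59 and 5.36 TPM in normal and at 0 counts in mECC, at least 172-fold lower against the floor. Hoxd11 stood at 8.34, 7.67, 6.45 and 8.8 TPM in normal and was likewise at 0 counts in mECC, and Hoxd10 fell beside it (0.01 against 7.93 TPM), while Hoxd8 (6.19 against 6.93 TPM) was called lower by TMM and not called by library totals. In the HoxA cluster the genes from Hoxa2 to Hoxa5 rose, Hoxa7 was not called with TMM and was called higher with library totals, and Hoxa9 to Hoxa11 fell. Hoxa4 went from 0.62, 0.32, 0.23 and 0.65 TPM to 37, 34.3, 34 and 33.5 TPM (63.1-fold, log2 5.98 with SE 0.15, adjusted p = 1.04e-17 by edgeR), and Hoxa2 and Hoxa3 rose as well (5.03 against 0.122 TPM and 32.1 against 0.858 TPM).

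Hoxa11, which the uterus needs for its stroma, fell from 6.26, 5.47, 5.94 and 5.87 TPM to 0.27, 0.03, 0 and 0.08 TPM (82.6-fold, log2 -6.37 with SE 0.32, adjusted p = 7.65e-13 by edgeR). Its log2 fold change was -7.61 without mECC library 1, the highest of the 4. Hoxa10 fell 2.76-fold (2.89 against 6.14 TPM). By mean TPM the most abundant HOX genes of both groups were HoxB genes. Hoxb9 rose from 8.43, 8.67, 7.18 and 6.45 TPM to 116, 113, 114 and 112 TPM (12.9-fold, log2 3.69 with SE 0.054, adjusted p = 4.52e-21 by edgeR), and Hoxb7 (104 against 39.7 TPM) and Hoxb8 (89.1 against 25.2 TPM) rose less. The mouse uterus expresses the 5' genes of HoxA and HoxD, and of Hoxa10, Hoxa11, Hoxd10 and Hoxd11 only Hoxa10 was above 1 TPM in mECC.

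**Figure D3:**
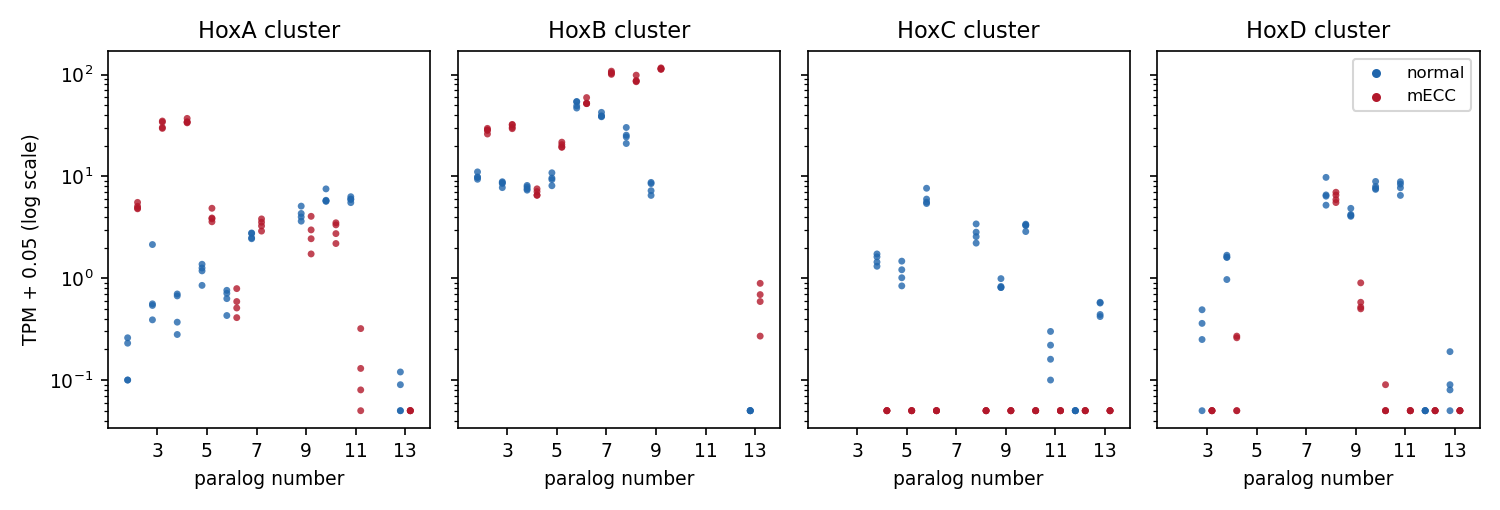
TPM plus 0.05 on a log axis for HOX genes of the 4 clusters by paralog number from 2 to 13, with 1 point for each of the 4 normal (blue) and 4 mECC (red) libraries. The HoxC genes and Hoxd11 sit at 0 in mECC, Hoxa2 to Hoxa4 are far above normal, and HoxB genes are expressed in both groups.

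Secreted products of the uterine epithelium fell in 16 of 18 cases, with a median of -5.84. Besides Prap1, Ltf and Sprr2f, the lipocalin gene Lcn2, whose protein binds iron-carrying siderophores, went from 2152, 2438, 1860.1 and 2071 TPM to 6.08, 6.36, 5.96 and 7.29 TPM (394-fold, log2 -8.62 with SE 0.089, adjusted p = 3.57e-23 by edgeR). The clusterin gene Clu (46.9 against 2031 TPM), Wfdc2 (157 against 2300.3 TPM) and the mucin gene Muc1 (4.7 against 197 TPM) fell as well. The exceptions were Cxcl15 and Spp1, the osteopontin gene, which was abundant in both groups. Spp1 stood at 3244, 3979, 2963 and 3236 TPM in normal and at 8444, 8509, 8490.1 and 8844 TPM in mECC (2.15-fold, log2 1.11 with SE 0.066, adjusted p = 9.44e-12 by edgeR).

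Complement and acute phase genes fell in 13 of 18 cases, with a median of -4.70. C3, the central complement component and an estrogen-induced product of uterine epithelium, fell from 888, 952, 739 and 773 TPM to 11.2, 14.5, 10 and 12.8 TPM (85.4-fold, log2 -6.42 with SE 0.10, adjusted p = 1.93e-20 by edgeR). Saa3 (0.06 against 223 TPM), Cfb (0.225 against 30.4 TPM) and the complement regulator Cd55 (0.0425 against 47.9 TPM) fell, and Masp1, a protease of the lectin pathway, rose (60.5 against 0.455 TPM). All 3 tested metallothionein genes, whose small proteins bind zinc and other metals, fell. They were chosen after their values were seen. Mt2 went from 4442, 4669, 4251 and 4556 TPM to 12.2, 13.3, 8.55 and 12.3 TPM (461-fold, log2 -8.85 with SE 0.085, adjusted p = 1.88e-23 by edgeR), and Mt1 (80.1 against 2971 TPM) and Mt3 (0.67 against 241 TPM) fell with it. S100g, the calbindin gene of uterine epithelium and also chosen after its values were seen, fell (13.6 against 1241 TPM).

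The genes of both main ovarian hormone receptors were expressed in mECC. Esr1, the estrogen receptor gene, stood at 20.1, 24.4, 21.6 and 21.4 TPM in normal and at 18.6, 19.9, 17.1 and 21.1 TPM in mECC, and the groups overlapped in TPM although the count test called it lower (1.37-fold, log2 -0.45 with SE 0.055, adjusted p = 3.78e-07 by edgeR) and limma on log2(TPM + 1) did not. Pgr, the progesterone receptor gene and an estrogen target, rose from 5.78, 5.87, 5.72 and 6.48 TPM to 25.5, 28.6, 28.8 and 31.1 TPM (4.32-fold, log2 2.11 with SE 0.084, adjusted p = 1.52e-14 by edgeR). The list of steroid receptors and response genes held 15 lower and 7 higher of 25, and 12 lower and 10 higher under library totals. Ihh, the epithelial ligand through which progesterone acts on the stroma, fell from 37, 34.3, 36.3 and 31.3 TPM to 0.1, 0, 0.08 and 0.06 TPM (559-fold, log2 -9.13 with SE 0.17, adjusted p = 1.22e-19 by edgeR). Its receptor gene and target Ptch1 rose (21.4 against 7.36 TPM), as did Wnt4 (23.7 against 2.3 TPM) and Nr2f2 (54.3 against 24.1 TPM), while Msx1 (0.01 against 17.8 TPM) and Areg (0.73 against 18.1 TPM) fell.

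Trp53, which encodes p53, was close to absent in mECC. It stood at 135, 129, 126 and 121 TPM in normal and at 2.29, 2.1, 2.33 and 2.12 TPM in mECC (65.9-fold, log2 -6.04 with SE 0.062, adjusted p = 3.47e-23 by edgeR, ENSMUSG00000059552, chromosome 11 at 69580359 to 69591873 of GRCm38). The groups did not overlap. Of the 26 genes tested within 250 kb of Trp53, itself included, 13 were higher and 8 lower with a median of 0.17, and Wrap53, which starts next to Trp53 on the other strand, had a log2 fold change of -0.57. The labels give no allele of Trp53. Of 26 known p53 targets 22 fell and 3 rose, with a median of -1.74. The cell cycle inhibitor gene Cdkn1a fell from 366, 358, 368 and 348 TPM to 21.7, 19.8, 20.5 and 19.1 TPM (19.6-fold, log2 -4.30 with SE 0.036, adjusted p = 3.34e-24 by edgeR). Eda2r (0.055 against 16.7 TPM), the apoptosis gene Pmaip1 (17.8 against 233 TPM), Ccng1 (55.8 against 237 TPM) and Mdm2, the ligase that degrades p53 (42.5 against 101 TPM), fell too. Sesn1 (35.1 against 2.26 TPM), Fas (13.6 against 2.26 TPM) and Ddit4l (16.2 against 8.5 TPM) rose.

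Cdkn2a, whose products restrain the cyclin D kinases and stabilise p53, moved opposite to Trp53. It rose from 2.9, 1.71, 1.49 and 2.34 TPM to 379.6, 387, 365 and 368 TPM (151-fold, log2 7.24 with SE 0.071, adjusted p = 2.1e-23 by edgeR). Of 8 inhibitors of cyclin-dependent kinases 5 rose and 2 fell, and Cdkn2b (169 against 38.2 TPM), Cdkn1b (67.3 against 11.1 TPM), Cdkn2c and Cdkn2d were the other rises. Ccnd1, the cyclin D1 gene, fell from 341, 349, 345 and 331 TPM to 54.4, 53.2, 54.1 and 53 TPM (7.55-fold, log2 -2.92 with SE 0.03, adjusted p = 3.57e-23 by edgeR). Genes of mitosis rose in 26 of 28 cases with 0 lower and a median of 0.77. Mki67 (25 against 20.5 TPM) and Kif23 (43.2 against 41.6 TPM) were not called, and both were called higher under library totals. Bub1b, a spindle checkpoint kinase gene, went from 12.5, 16.1, 13 and 13.2 TPM to 67.5, 58.5, 63 and 58.7 TPM (3.76-fold, log2 1.91 with SE 0.04, adjusted p = 6.57e-19 by edgeR), and Foxm1, which drives mitotic genes, from 18.2 ± 1.38 to 51.6 ± 3.46 TPM (SD, n = 4).

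Genes of G1 and S phase were split, with 17 of 36 higher and 14 lower and a median of 0.00, and with library totals 23 were higher and 6 lower. Myc, which drives ribosome production and growth, stood at 94.9, 83.2, 90.6 and 86 TPM in normal and at 60.9, 62.4, 56.9 and 58.4 TPM in mECC (1.87-fold, log2 -0.90 with SE 0.055, adjusted p = 1.16e-11 by edgeR). Its relatives Mycn (0.765 against 17.3 TPM) and Mycl (1.38 against 7.47 TPM) and its partner Max (34.2 against 84.1 TPM) fell, as did the antagonist Mxd1 (5.19 against 20.7 TPM), while the antagonists Mxd3 (15 against 2.2 TPM) and Mxd4 (111 against 23.9 TPM) rose. Of the 12 genes tested of this network 4 rose and 7 fell, Myc among them. Of 26 ribosome assembly genes 22 were lower and 2 higher with a median of -0.55, and 16 were lower and 5 higher under library totals. Utp20 fell the most (7.28 against 21.9 TPM), and the nucleophosmin gene Npm1 fell 1.32-fold.

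Growth factor receptor genes fell in 22 of 30 cases and rose in 5, and 20 fell and 9 rose under library totals. Fgfr2 (9.68 against 66 TPM), Erbb3 (1.79 against 33.1 TPM), Epha2 (25.1 against 179 TPM) and Egfr (20.8 against 46.2 TPM) fell, and Pdgfrb, Pdgfra (29.6 against 7.48 TPM) and Ntrk3 (6.45 against 0.0125 TPM) rose. Of 40 growth factor genes 21 rose and 17 fell. Fgf18 went from 69, 72.2, 72.3 and 67.9 TPM to 0.37, 0.08, 0.39 and 0.27 TPM, and Hbegf (13.5 against 155 TPM) and Btc (1.15 against 16.9 TPM), ligands of Egfr, fell. Angpt1, a ligand that steadies vessels, rose from 0.02, 0.09, 0.06 and 0.06 TPM to 17.4, 19.8, 18 and 19.3 TPM (245-fold, log2 7.94 with SE 0.15, adjusted p = 1.59e-19 by edgeR), and Vegfa (285 against 73.4 TPM), Vegfd (21.7 against 0.863 TPM), Ptn (56.7 against 0.395 TPM) and Igf2 (14.3 against 0.255 TPM) rose. H19, the imprinted neighbour of Igf2, rose with it (48.9 against 1.67 TPM).

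WNT pathway genes rose in 20 and fell in 16 of 42 cases, and 25 rose and 13 fell under library totals. Wnt7a (5.57 against 141 TPM) and Wnt7b (25.2 against 279 TPM), ligands made by uterine epithelium, fell 30.5-fold and 13.3-fold. Wnt10a (4.63 against 0.08 TPM), the receptor Lgr4 (126 against 10.3 TPM), the transcription factor Tcf7 (32.3 against 3.8 TPM) and the inhibitors Sfrp4 (8.84 against 0.0275 TPM) and Notum (10.4 against 0.225 TPM) rose. Of 40 TGF-beta and BMP genes 25 fell and 13 rose. The BMP antagonist Grem1 (42.8 against 0.282 TPM) and Tgfb2 (73.5 against 7.58 TPM) rose, and the activin antagonist Fst (4.42 against 92.8 TPM), Id1 (78.4 against 324 TPM) and Inhba (58.9 against 192 TPM) fell. In the Hedgehog and Notch list 12 of 20 rose and 6 fell. Dhh fell with Ihh (0.0075 against 5.38 TPM), and the transducers Smo (95.1 against 31.8 TPM) and Gli3 (12 against 2.27 TPM) and the receptor Notch3 (21.1 against 1.52 TPM) rose.

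Cytokine genes fell in 17 of 24 cases and rose in 5. Il1a, an alarm cytokine stored by epithelial cells, went from 745, 780.2, 715 and 717 TPM to 0.1, 0.15, 0.18 and 0.08 TPM (6901-fold, log2 -12.75 with SE 0.091, adjusted p = 4.96e-25 by edgeR). Its antagonist Il1rn moved the other way, from 16, 20.9, 18.7 and 10.7 TPM to 255, 272, 258 and 309 TPM (12.2-fold, log2 3.61 with SE 0.06, adjusted p = 2.44e-20 by edgeR). Il33, another alarm cytokine of the same family, rose from 1.58, 1.7, 1.6 and 1.81 TPM to 196, 209, 191 and 218 TPM (106-fold, log2 6.73 with SE 0.068, adjusted p = 2.77e-23 by edgeR), and Il1f6, which is not on the list, was at 163 ± 11.8 TPM in normal and 0 counts in mECC. All 4 belong to the interleukin 1 family, and in each the groups did not overlap.

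Of 19 chemokine genes 10 fell and 7 rose. Cxcl12, the stromal ligand of Cxcr4, rose from 7.94, 7.3, 8.94 and 7.06 TPM to 1438, 1540.5, 1417 and 1531 TPM (166-fold, log2 7.37 with SE 0.061, adjusted p = 2.65e-24 by edgeR), and Ccl9 (31.6 against 3.06 TPM) rose. Ccl20 (0.0925 against 39.2 TPM), Cxcl17 (0.223 against 85.4 TPM) and Cxcl16 (21.2 against 265 TPM) fell. Antigen presentation genes of MHC class I were split, with 9 of 21 higher and 10 lower, and 10 and 9 under library totals. The classical genes H2-K1 (93.5 against 477 TPM) and H2-D1 (46.7 against 441 TPM) fell, B2m fell less (851 against 1017 TPM) and Tapbp rose (293 against 91.4 TPM). H2 genes are near copies of each other and their counts are uncertain. Interferon response genes were 13 higher and 18 lower of 36. The genes Oas1a, Oas2 and Oas3, which sense double-stranded RNA, fell to 0 or near 0 (0.035 against 17.3 TPM, 0 against 3.01 TPM and 0 against 2.89 TPM), whereas Irf1 (76.8 against 17.6 TPM) and Irgm1 (118 against 26.8 TPM) rose. Of 19 checkpoint and adenosine genes 12 fell, among them Nt5e, which makes adenosine (10.9 against 165 TPM), and Vtcn1 (4.18 against 66.9 TPM), and Cd276 rose (90.3 against 36 TPM).

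**Figure D4:**
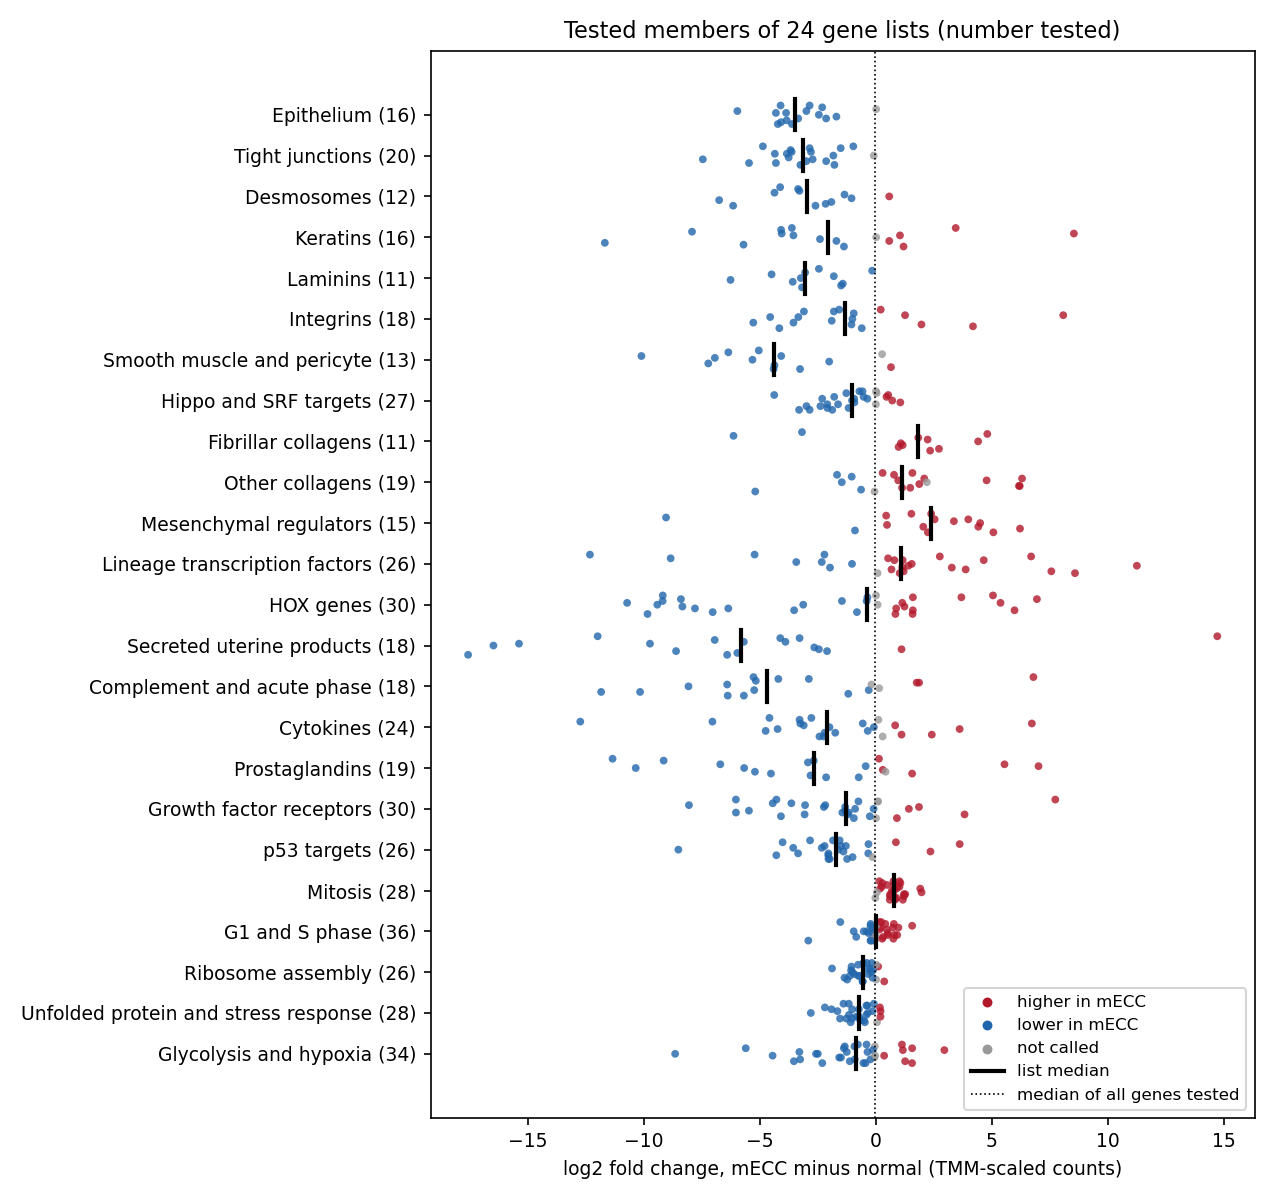
Log2 fold change (mECC minus normal) of every tested member of 24 gene lists, red where called higher, blue where called lower and grey where not called, with a bar at each list's median and a dotted line at the median of all genes tested. Epithelium, tight junctions, laminins, secreted products and complement lie to the left, and mesenchymal regulators, collagens and mitosis to the right.

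In metabolism, genes of glycolysis and hypoxia fell in 24 of 34 cases and rose in 7, with a median of -0.85. Under library totals 21 fell and 10 rose. The lactate exporter gene Slc16a3 went from 217, 213, 194 and 219 TPM to 0.37, 0.43, 0.4 and 0.23 TPM (405-fold, log2 -8.66 with SE 0.074, adjusted p = 4.33e-24 by edgeR), and the glucose transporter gene Slc2a1 fell 11.6-fold (54.2 against 540.1 TPM). The enzymes Ldha (1095 against 1738 TPM) and Eno1 (1158 against 2131 TPM) fell less, and Pfkm rose (70.3 against 8.45 TPM). Sterol and fatty acid synthesis was split, with 15 of 30 higher and 14 lower, and 17 and 10 under library totals. The desaturase genes Scd1 (184 against 34 TPM) and Scd2 (1079 against 259 TPM) rose. Stress and unfolded protein genes fell in 24 of 28 cases with a median of -0.73, led by the small heat shock protein gene Hspb1 (143 against 844 TPM).

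Prostaglandin genes fell in 13 of 19 cases with a median of -2.68. Ptgs2, the inducible cyclooxygenase of embryo implantation, went from 532, 482, 551 and 509 TPM to 26.1, 26.8, 27.4 and 26.2 TPM (23.1-fold, log2 -4.53 with SE 0.043, adjusted p = 1.72e-23 by edgeR), and the prostacyclin synthase gene Ptgis fell (0.0475 against 111 TPM). Akr1c18, which inactivates progesterone and is on the redox list, fell (2.9 against 1219 TPM). Ptgds (18.6 against 0.14 TPM) rose. Retinoid genes were divided, with 12 of 29 higher and 15 lower. Cyp26a1, which degrades retinoic acid, went from 262, 267, 259 and 263 TPM to 0, 0.04, 0.08 and 0.05 TPM (6413-fold, log2 -12.65 with SE 0.096, adjusted p = 1.22e-24 by edgeR). Aldh1a2, which makes it, fell (12.3 against 91.7 TPM), and the receptor gene Rara (52 against 9.21 TPM), Dhrs3 (69.9 against 3.29 TPM) and Aldh2 (1129 against 156 TPM) rose.

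Of 40 redox genes 18 were higher and 21 lower, and 20 and 19 under library totals. Gsto1 fell from 4265 ± 125 to 291 ± 12.6 TPM (SD, n = 4), and Gpx3 (1.62 against 192 TPM) and Hmox1 (75.8 against 396 TPM) fell. Gsto1 is a glutathione transferase gene, and genes of this kind went both ways. Gsta4 (235 against 3.24 TPM), Gstm1 (225 against 20.6 TPM) and Mgst2 (53.2 against 1.24 TPM) rose. Cyp1b1, which hydroxylates estradiol, went from 2.47, 2.07, 2.73 and 3.44 TPM to 406, 434, 395 and 422 TPM (129-fold, log2 7.01 with SE 0.083, adjusted p = 2.34e-22 by edgeR). Among vasoactive genes 7 of 18 rose and 9 fell. Agt was at 0 counts in normal and at 28.2, 30.5, 28 and 33.3 TPM in mECC. The natriuretic clearance receptor Npr3 (59 against 0.168 TPM), the angiotensin-cleaving Enpep (30.5 against 0.502 TPM) and the endothelin receptor Ednra (31.8 against 1.83 TPM) rose, and the endothelin gene Edn1 (1.45 against 245 TPM), Adm (1.73 against 120.2 TPM) and Ace (0.01 against 2.84 TPM) fell.

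Apoptosis genes fell in 19 of 31 cases and rose in 11. Bmf (79.2 against 1.21 TPM) and Casp12 (63.2 against 4.53 TPM) rose, and Bcl2l1 (50.4 against 231 TPM) and Cflar (27.4 against 87 TPM) fell. Of 32 genes of DNA methylation, chromatin and embryonic RNA binding, 17 were higher and 12 lower. Igf2bp3, an RNA-binding protein of embryonic cells, rose from 0.05, 0, 0.21 and 0.03 TPM to 25.1, 25.1, 23.3 and 25 TPM (502-fold, log2 8.97 with SE 0.14, adjusted p = 7.84e-21 by edgeR), and Hmga1 (123 against 372 TPM) and Hmga2 (21.2 against 66.2 TPM) fell. Of 30 imprinted genes 10 rose and 16 fell, with Meg3 (0.133 against 6.58 TPM) and Rian (0.215 against 18.7 TPM), maternally expressed neighbours, falling together. Of 36 genes recurrently altered in endometrial cancer 13 were higher and 22 lower, and 16 and 16 under library totals. Arid1a fell 1.51-fold (21.4 against 27.2 TPM) and Ctnnb1 fell 1.24-fold (510.4 against 526 TPM), and Ctnnb1 was not called by limma on log2(TPM + 1).

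Xist, the RNA of the inactive X chromosome, stood at 18.2, 24.5, 25.4 and 23.4 TPM in normal and at 0, 0.01, 0.01 and 0.02 TPM in mECC (2092-fold, log2 -11.03 with SE 0.15, adjusted p = 2.14e-21 by edgeR). The genes tested on the X chromosome had a median log2 fold change of 0.01. Xist overlaps the antisense gene Tsix, and the strand setting of the counting is not given.

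The direction of change differed between chromosomes. Of 512 genes tested on chromosome 14, 74.6% were lower and 16.4% higher, and their median log2 fold change was -0.94. On chromosome 5, 67.2% of 1003 genes were higher, with a median of 0.56. Chromosomes 2 and 17 had medians of 0.38 each, and chromosome 12 of -0.45. The shift on chromosome 14 ran over its length, with medians of -0.74, -1.01, -0.99 and -0.95 in 4 successive parts of equal gene number. On chromosome 12 these parts went from -0.17 to -0.33, -0.58 and -0.81. Each of the 4 mECC libraries gave nearly the same value on chromosome 14, from -0.90 to -0.88 relative to the mean of the normal libraries. In these values the library's median deviation over all genes tested was also subtracted. Under library totals, where the median of all genes tested was 0.22, the median was -0.70 on chromosome 14 and -0.21 on chromosome 12, and the first part of chromosome 12 was at 0.069. DNA was not measured, and copy number was not tested.

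**Figure D5:**
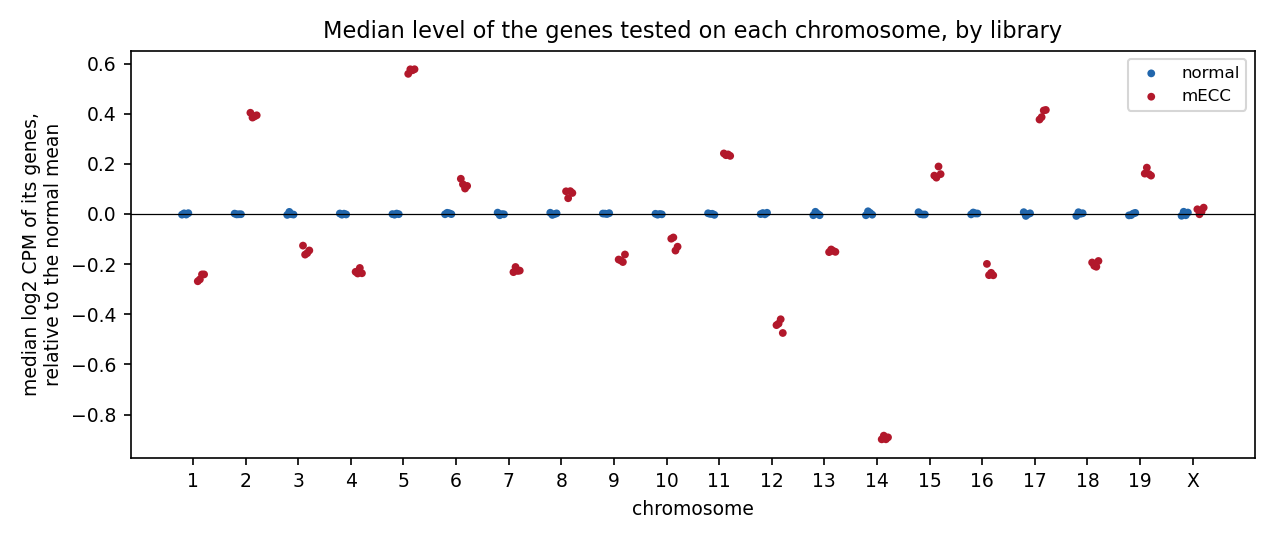
Median log2 CPM of the genes tested on each chromosome relative to the mean of the normal libraries, less the same library's median deviation over all genes tested. Each of the 4 normal (blue) and 4 mECC (red) libraries has 1 point. Chromosome 14 lies between -0.90 and -0.88 in the 4 mECC libraries, and chromosome 5 between 0.56 and 0.58.

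A running median was taken over 51 neighbouring genes tested that had a mean of at least 1 TPM in either group. Its lowest value was -1.41 on chromosome 3, from 90391388 to 94944758. That stretch holds the epidermal differentiation complex with the Sprr, Lce and S100 genes. Of the 54 genes tested that lie wholly within it 36 fell and 15 rose, Sprr1a, Sprr1b and Sprr2k among the latter. The highest value was 1.25 on chromosome 5, from 137502673 to 139427800. Of the 53 genes tested that lie wholly within that stretch, 45 rose and 4 fell. Among those that rose were the procollagen enhancer gene Pcolce (1052 against 32.9 TPM), Mcm7 (128 against 58.3 TPM), Cops6 (356 against 162 TPM), Lamtor4 (131 against 30.4 TPM) and Taf6 (73.3 against 26.7 TPM).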

How the data were processed

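RNA was sequenced from 4 mECC, 4 normal endometrial and 4 HPmECC libraries, and groups follow the sample titles. Per the submitters' processing notes the authors used Trim Galore, STAR 2.6.1a and RSEM 1.3.1 with GRCm38, while their order, annotation release and strand setting were not given in the sources used here. Values deposited were estimated counts per gene, already whole numbers, and TPM. RSEM divides reads among near copies, so genes such as the Sprr2 and H2 families are uncertain, as are overlapping and antisense genes.

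Genes were kept by filterByExpr of edgeR 4.0.16 (R 4.3.3, minimum count 10) over all 12 libraries. mECC was set against normal with TMM factors and the quasi-likelihood test of edgeR, with 3 groups sharing the spread and no covariate, and Benjamini-Hochberg adjustment over 15283 genes at 0.05. The code was tested on simulated data with known changes. A gene at 0 counts in a group was set against a floor of 3 counts, and one with 1 to 3 counts got an exact 95% interval, both over the 4 libraries and for counting error only. Alternatives used DESeq2 1.42.0 and limma 3.58.1. Library totals fix the counting error, which is larger for genes with few counts.

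The comparison, the gene lists and the tests were chosen with earlier results of these data known. Genes were named by a rule: the 12 steepest changes each way with at least 50 TPM in the higher group and no overlap, up to 4 in each direction per list with at least 5 TPM, the 2 most abundant members of each list, members of short lists that were not called, 12 genes of set interest, and genes at the peaks of the running median. Of the 290 genes named, 77 fall outside its clauses on steepest changes, on called or abundant list members and on genes of set interest. Some of the 77 come under its clauses on members not called or on peaks of the running median. The others were chosen after their values were seen. Among the 77 are most Hox, Twist, Zeb and metallothionein genes given, and some Sprr genes. Some named results are not reported here. Promoter letters come from RefSeq on GRCm38.p6.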

Additional observations from a re-analysis of the deposited data

Results flagged for a closer look

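In 42 cases 1 library of a group of 4 stood apart from the other 3 in TPM, its gap to the nearest being too large a share of the group's range by Dixon's 95% limit. That is 7.58% of the 554 groups of 4 examined. Chance gives about 1 in 20 for continuous values. A group with reads in only 1 library is always flagged, so these shares cannot be set against each other directly.

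In normal library 2 the stromal genes Col1a1 (293 TPM), Col1a2 (83.9 TPM), Twist1 (5.8 TPM) and Inhba (164 TPM) were low, and the epithelial genes Cldn10 (23.3 TPM) and Krt13 (0.26 TPM) were high. Its sum of fibroblast markers was also the lowest of the 4 normal libraries, at 2241 TPM. In normal library 1, Dcn (22.2 TPM), Hoxc9 (0.94 TPM) and Sfrp4 (0.11 TPM) were high and Ptn (0.14 TPM) was low. In normal library 3, Hoxa10 (7.48 TPM), Hoxa3 (2.09 TPM), Hmox1 (410.4 TPM) and Cdh6 (0.15 TPM) were high and Prap1 was low, at 9224 TPM. In normal library 4, Snai3 was low, at 1.05 TPM.

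Several flags in mECC were on genes where 1 library held all the reads. In mECC library 2, Sox17 (2.22 TPM), Edn1 (2.02 TPM), Hoxb8 (98.5 TPM), Ace (0.04 TPM), Hoxd10 (0.04 TPM), Krt17 (0.09 TPM) and Ltf (0.02 TPM) were high, and Dcn (3.9 TPM) and Dsg2 (1.63 TPM) were low. In mECC library 3, Cd55 (0.08 TPM), Dhh (0.03 TPM), Mmp7 (0.21 TPM), Msx1 (0.04 TPM), Oas1a (0.14 TPM), Rian (0.41 TPM) and Slc1a1 (0.03 TPM) were high, and Igf2bp3 (23.3 TPM) was low. In mECC library 4, Gpx3 (2.11 TPM), Notum (11.5 TPM), Prap1 (0.17 TPM), Saa3 (0.24 TPM) and Spp1 (8844 TPM) were high. In mECC library 1, Twist1 (43.8 TPM) was high, and Btc (0.9 TPM), Cdh6 (5.93 TPM) and Sprr2f (0 TPM) were low.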

How the results depend on the processing

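Of the 290 genes named, 279 had the same direction and call in every one of the 17 alternatives they were tested in, and 82 of 116 list counts stayed within 1.5 times. Requiring at least 10 CPM in 4 libraries left 1553 genes at least 2-fold higher and 1994 lower, as fewer genes were tested. With limma on log2(TPM + 1), 2300 genes were at least 2-fold lower. Leaving out 1 library at a time gave 6373 to 6434 genes higher, 6662 to 6799 lower, 2832 to 2880 at least 2-fold higher and 3486 to 3611 at least 2-fold lower. The fold of 18 genes named moved by over 1.5 times without 1 library, with 0 changes of call or direction. Besides Krt13 and Hoxa11, they were Ltf, Ptgis, Hoxd10 and Ace (mECC library 2), Dhh, Msx1, Oas1a and Slc1a1 (mECC library 3), Cldn10, Lrrn4, Prap1 and Saa3 (mECC library 4), Ccl20 (mECC library 1), Sfrp4 (normal library 1), and Igf2 and Ntrk3 (normal library 4). All 18 were at or under 0.255 TPM in their lower group.

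With the replicate number as a block, 6405 genes were higher and 6718 lower. Same-numbered libraries of the groups correlated at 0.045, 0.080, -0.014 and 0.024 in their deviations, so the numbers were not taken as pairs.

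Near-zero log2 fold changes turned sign. Under library totals, limma on log2(TPM + 0.1) and limma on log2(TPM + 1), in that order, Cldn6 was at 0.15, 0.13 and 0.13, Kif23 at 0.22, 0.053 and 0.052, and Lamb2 at 0.078, 0.12 and 0.12. Kif23 was at 0.011 without the filter and at 0.00025 with only mECC and normal in the fit. Krt19 was at -0.012 with DESeq2 and at -0.012 with median-of-ratios factors, and Mki67 ran from -0.013 without mECC replicate 3 to 0.073 without mECC replicate 4. Beyond scaling, the cause was not tested. DNA, protein and separate cultures were not measured, and genes with few counts carry the widest error.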

Other observations

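Cadherin genes, whose proteins join cells of like kind, were 5 higher and 6 lower of 11 tested, and 5 and 5 under library totals. Besides the loss of much of Cdh1, the gene of the stromal and neural N-cadherin, Cdh2, stood at 26.1, 25.8, 27.2 and 25.1 TPM in normal and at 26.4, 25.2, 26.7 and 25.1 TPM in mECC. The count test called Cdh2 lower (1.18-fold, log2 -0.24 with SE 0.039, adjusted p = 1e-05 by edgeR) although its TPM overlapped between the groups, and library totals did not call it. Cdh3, the P-cadherin gene of basal epithelium, rose (48.9 against 15.6 TPM), as did Cdh16 (23.7 against 3.66 TPM) and Cdh6 (6.48 against 0.085 TPM), which are known from kidney epithelium. Cdh11, a cadherin of stromal cells, fell (11.8 against 30.9 TPM).

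Genes that mark the mesothelium, the covering of the outer uterine wall, fell in 6 of 7 cases tested and 0 rose. Upk1b stood at 14.4, 12.7, 17 and 14.2 TPM in normal and at 0 counts in mECC, and was at least 573-fold lower against the floor of 3 counts over the 4 libraries. Lrrn4 (0.025 against 6.33 TPM) and Upk3b (0.113 against 9.41 TPM) fell as well, and the mesothelin gene Msln fell with a remainder (39.8 against 321 TPM). Krt19 and Wt1 are on the same list and are given above. Hdc, the histidine decarboxylase gene of mast cells and of the preimplantation uterus, fell from 35.5, 35.4, 36.9 and 32.8 TPM to 0.03, 0.09, 0.24 and 0.03 TPM (636-fold, log2 -9.31 with SE 0.16, adjusted p = 4.37e-20 by edgeR). Only 2 of the 6 mast cell markers, Hdc among them, passed the filter on low counts.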
